A study of Mus musculus with 12 samples.

Results

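Liver transcripts of the cytochrome P450 genes of families 1 to 3 were compared between 3 mouse genotypes. Members were the rows of the count table whose symbol is Cyp, a family number from 1 to 3, a subfamily letter and a gene number, which gave 58 of 24411 genes in 16 subfamilies. Of these, 47 passed the filter on low counts and were tested. The 11 others were Cyp2b19, Cyp2b23, Cyp2c65, Cyp2c66, Cyp2d34, Cyp2j11, Cyp2j12, Cyp2j13, Cyp2t4, Cyp2w1 and Cyp3a57. They had at most 5 counts in any mouse, and 6 of them had no count at all. Another 5 listed symbols of these families have a further letter or mark a pseudogene, such as Cyp3a41a, and are not members.

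RNA came from whole liver of mice at 3 months of age on a C57BL/6 background, 3 per genotype, with 1 library per mouse. All mice carried Atg7flox/flox, the loxP-flanked autophagy gene Atg7. Those without Cre (cont.) served as controls, Atg7-KO mice also carried Alb-Cre, and Atg7-KO;p62T352A mice carried Alb-Cre together with the homozygous T352A exchange in the endogenous p62 gene, Sqstm1. Alb-Cre is driven by the albumin promoter and deletes in hepatocytes, whereas the p62 exchange is present in every cell. Deletion in other liver cells was not tested. p62 is a cargo receptor that builds up when autophagy is lost and holds KEAP1, the repressor of the transcription factor NRF2, in p62 bodies, and the exchange was made to stop that retention. Mice with the exchange and intact Atg7 were not analysed here.

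P450 enzymes are heme proteins of the endoplasmic reticulum that add oxygen to drugs, toxins, steroids and fatty acids, and they draw electrons from P450 reductase. Families 1 to 3 are the main oxidases of foreign compounds in liver, where many of them are made by pericentral hepatocytes. Their transcription is controlled by ligand-activated receptors (AhR for family 1, CAR and PXR for much of families 2 and 3), by hepatocyte factors such as HNF4A, and in mice by the sex-specific pattern of growth hormone.

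Total counts were 9671073 to 23285134 per mouse. Levels are given as normalized CPM (counts scaled to library size and by edgeR's TMM factors of 0.750 to 0.953 in cont., 1.28 to 1.32 in Atg7-KO mice and 0.823 to 0.951 in Atg7-KO;p62T352A). Atg7 itself was at 44.2 to 55.4 normalized CPM in cont. mice, 9.57 to 12.0 in Atg7-KO mice and 27.4 to 29.7 in Atg7-KO;p62T352A, and was lower than in cont. in both, with FDR 2.55e-05 and 0.0206. The second call (log2 fold change -0.75) was lost when any of the 3 Atg7-KO;p62T352A mice was left out. Its level in Atg7-KO;p62T352A was above that in Atg7-KO (FDR 0.000164), and the part of this difference in the results was not tested. The labels give no sex. Xist was at 0.401 to 1.35 normalized CPM in the mouse numbered 1 of every genotype and at 373 to 2015 in mice 2 and 3. The latter also had transcripts of 4 Y-linked genes (Ddx3y, Eif2s3y, Kdm5d, Uty), summing to 36.5% and 8.23% of the level of mouse 1 in cont. mice 2 and 3, to 4.73% and 0.798% in Atg7-KO, and to 11.5% and 3.98% in Atg7-KO;p62T352A. The male-biased gene Elovl3 was at 36.0% and 8.57% of cont. mouse 1 in cont. mice 2 and 3. Relative to mouse 1 of the same genotype, it was at 604% and 156% in Atg7-KO mice 2 and 3. In Atg7-KO;p62T352A mice 2 and 3 it was at 11.0% and 3.86%. Why both kinds of transcript were in 1 library was not tested. Cont. mice 2 and 3 also stood apart in the clock output gene Dbp, at 79.8 and 193 normalized CPM, against 0.859 in cont. mouse 1 and 0.783 to 4.27 in the 6 other mice. Counts of members are therefore given also without the mice numbered 1 and without cont. mice 2 and 3, and the part of these differences in the results was not tested.

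In Atg7-KO livers, P450 transcripts mostly fell, and the Cyp2a pair took the place of Cyp2e1 and Cyp3a11 at the top of the levels. Per kilobase of transcript, Cyp2e1 led in cont. mice with a mean of 4108 normalized CPM per kb, followed by Cyp3a11 at 1286 and Cyp2d26 at 708. In Atg7-KO mice, Cyp2a5 led at 3312, followed by Cyp2a4 at 2523 and Cyp1a2 at 629, and Cyp2e1 stood at rank 6 with 409.8. In Atg7-KO;p62T352A mice, the order of the first 2 was again that of cont. mice, with Cyp2e1 at 2095 and Cyp3a11 at 1257 normalized CPM per kb. Cyp2e1 did not overlap Cyp3a11 between mice in cont. or in Atg7-KO;p62T352A livers, and Cyp2a5, Cyp2a4 and Cyp1a2 did not overlap each other in Atg7-KO livers. Cyp1a2 overlapped Cyp3a11, the next in order there, so their order is not resolved. Cyp3a11, Cyp2d26 and Cyp2a5 overlapped in cont. mice, so their order is not resolved.

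The Cyp2a subfamily held 3.24% to 13.5% of a liver's P450 counts without Cre, 56.3% to 63.5% in Atg7-KO mice and 8.89% to 14.0% in Atg7-KO;p62T352A mice. The share of Cyp2e1 was 23.4% to 30.4% in cont., 3.49% to 4.34% in Atg7-KO mice and 16.2% to 20.4% in Atg7-KO;p62T352A. For both subfamilies the Atg7-KO mice lay apart from all others. The shares of Cyp2c, 20.6% to 23.0% in cont. and 7.02% to 8.79% in Atg7-KO, were 13.6% to 27.8% in Atg7-KO;p62T352A. All members together took 2.47% ± 0.344 (SD, n = 3) of the counts in cont., 2.52% ± 0.146 in Atg7-KO mice and 1.85% ± 0.342 in Atg7-KO;p62T352A. On the scale of normalized CPM the mean of cont. mice was highest, although cont. and Atg7-KO;p62T352A mice overlapped, with sums of 28146 ± 3677 in cont., 19325 ± 798 in Atg7-KO mice and 21245 ± 4771 in Atg7-KO;p62T352A.

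**Figure D1:**
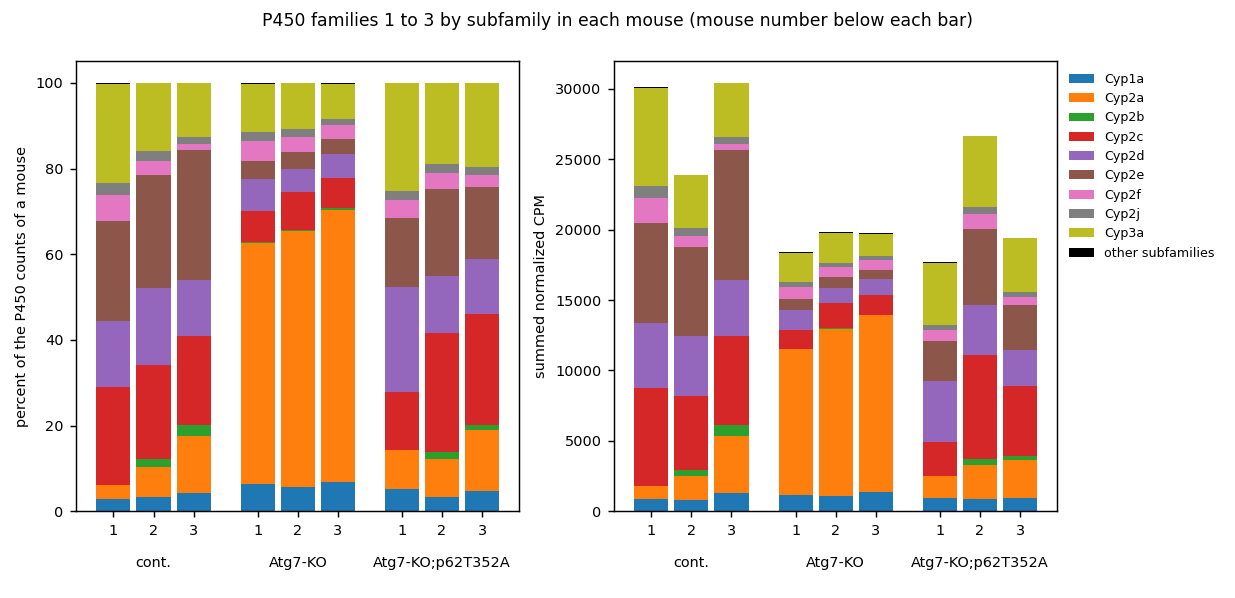
Left, percent of the P450 counts of each mouse by subfamily; right, summed normalized CPM of the members. Each bar is 1 mouse, with its number below. Cyp2a (orange) took 56.3% to 63.5% of the P450 counts in Atg7-KO mice and at most 14.0% in the others, and Cyp2e (brown) took at most 4.34% in Atg7-KO mice.

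Between Atg7-KO and cont., 24 of the 47 tested members were lower and 4 higher (edgeR's quasi-likelihood test, FDR under 0.05 over all tested genes and a fold change over 1.5). These are 51.1% and 8.51% of the tested members, against 22.1% lower and 21.6% higher among all 13922 tested genes. The median log2 fold change was -1.60 over the members and -0.03 over all tested genes. In 23 members the Atg7-KO mice lay below every cont. mouse, and in 4 above, where 26.3% and 29.2% of all tested genes did so. In bulk liver, fewer cells of a type and less RNA per cell cannot be told apart. Without the mice numbered 1, 30 members were lower and 6 higher, where 27.3% and 27.1% of all genes tested were. Without cont. mice 2 and 3, 23 were lower and 5 higher, against 19.4% and 19.1% of all genes tested, with the lone cont. mouse assumed to vary like the other genotypes.

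Between Atg7-KO;p62T352A and Atg7-KO, 18 members were higher and 5 lower, which is 38.3% and 10.6% of the tested members against 24.7% higher and 26.2% lower among all tested genes. The median log2 fold change was 1.23 over the members and 0.00 over all tested genes (0.0021). In 20 members the Atg7-KO;p62T352A mice lay above every Atg7-KO mouse, and in 9 below, where 36.4% and 36.8% of all tested genes did so. This comparison shares the Atg7-KO mice with the one before, so opposite signs in both are not independent of each other. Without the mice numbered 1, 24 members were higher and 6 lower, against 26.3% and 27.6% of all genes tested.

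Between Atg7-KO;p62T352A and cont., 1 member was lower (Cyp2c29) and 0 higher by edgeR, against 5.34% lower and 6.25% higher among all tested genes. The median log2 fold change was -0.40 over the members and 0.0044 over all tested genes. At an unadjusted p under 0.05 there were 9 lower and 2 higher, against 12.8% and 15.3% of all tested genes. DESeq2 called 4 lower and 1 higher, against 8.33% and 7.19% of all genes with an FDR. In 3 members these mice lay below every cont. mouse, and in 3 above, where 11.2% and 15.5% of all tested genes did so. The count moved with the cont. mice used, as did that of all genes. Without cont. mouse 1, 9 members were lower and 0 higher, against 12.2% and 10.7% of all genes tested. Without the mice numbered 1 there were 9 lower and 2 higher, against 11.8% and 9.35%, and without cont. mice 2 and 3 there were 8 lower and 6 higher, against 17.4% and 16.5%. Across the 44 members with a mean of at least 1 normalized CPM, the highest cont. mouse was a median of 2.74 times the lowest, against 1.43 times in Atg7-KO mice and 2.02 times in Atg7-KO;p62T352A. A ratio over 5 was found for 18 members in cont., 5 in Atg7-KO mice and 12 in Atg7-KO;p62T352A.

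**Figure D2:**
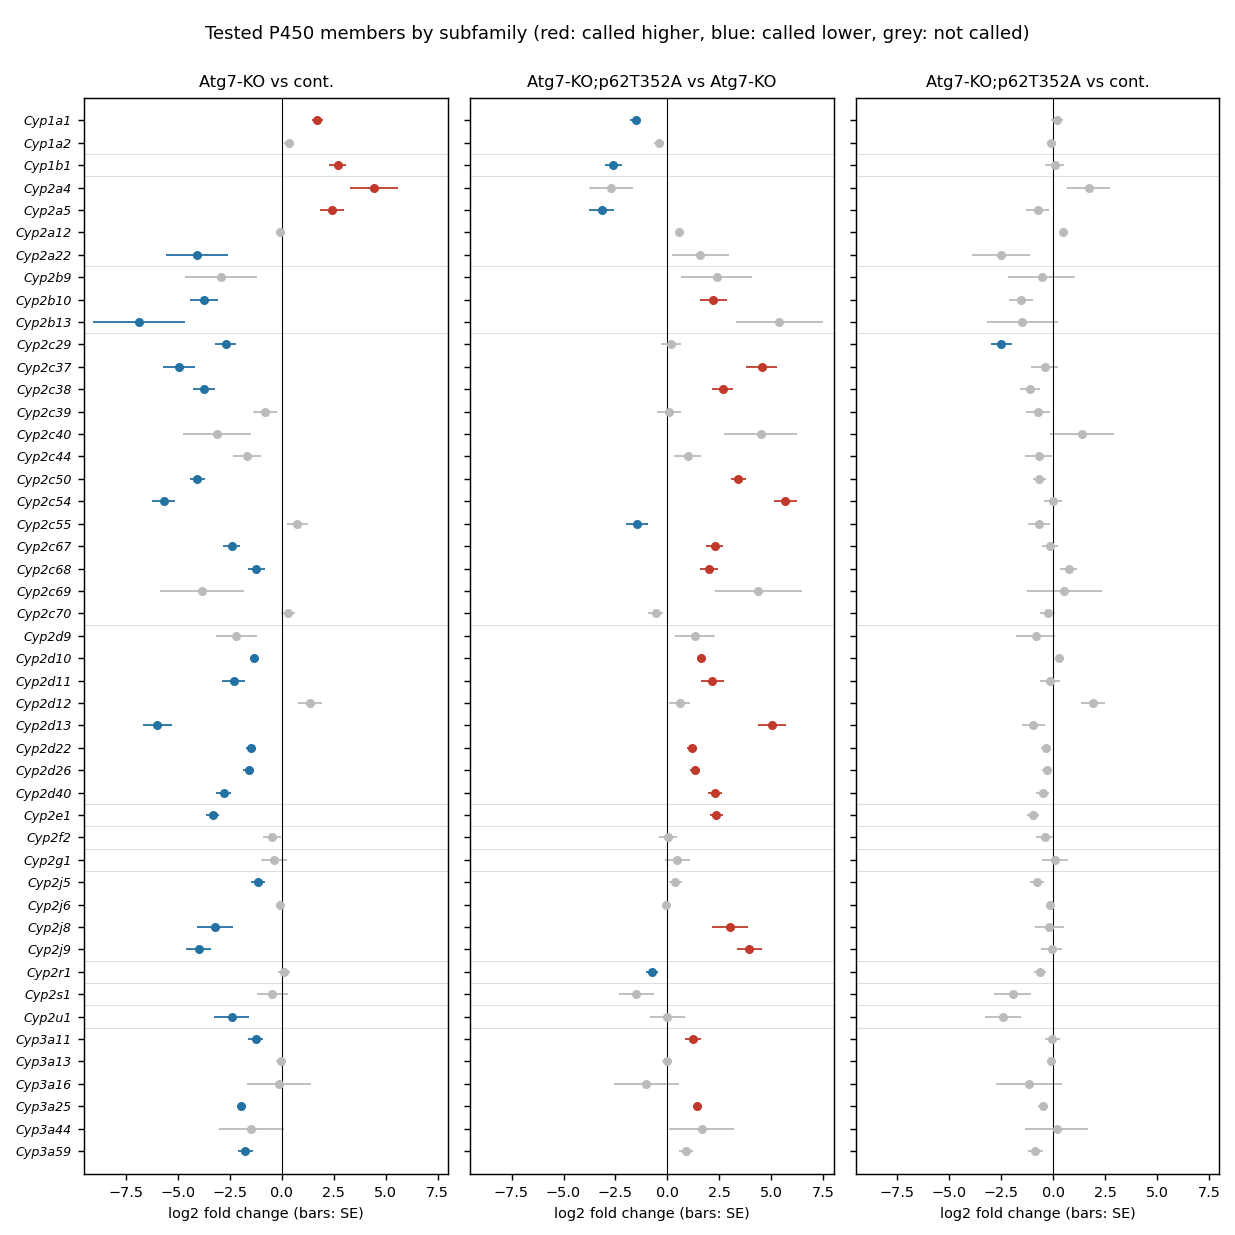
Log2 fold change (point) with its SE (bar) for the 47 tested members, ordered by subfamily, in the 3 comparisons. Red marks members called higher and blue those called lower. In Atg7-KO against cont. 24 are blue and 4 red, in Atg7-KO;p62T352A against Atg7-KO 18 are red and 5 blue, and against cont. only Cyp2c29 is called.

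Family 1 holds the classical targets of AhR. Cyp1a1, which oxidizes polycyclic aromatic hydrocarbons, was at 1.26, 1.23 and 1.32 normalized CPM in cont. mice 1 to 3, at 3.29, 4.27 and 4.99 in Atg7-KO mice and at 1.36, 1.68 and 1.31 in Atg7-KO;p62T352A. The Atg7-KO mice lay above all others. The log2 fold change was 1.72 (SE 0.27, FDR 0.000844) in Atg7-KO against cont. and -1.53 (SE 0.26, FDR 0.00106) in Atg7-KO;p62T352A against Atg7-KO. Cyp1b1, an enzyme of estrogen and hydrocarbon metabolism that is low in liver, was at 1.15, 0.946 and 1.10 in cont., 6.96, 7.03 and 6.74 in Atg7-KO mice and 0.714, 0.560 and 2.09 in Atg7-KO;p62T352A. Its log2 fold changes were 2.68 (SE 0.43, FDR 0.000992) and -2.60 (SE 0.42, FDR 0.000808). Both genes were low throughout, at most 7.03 normalized CPM in any mouse. Cyp1a2, the abundant liver enzyme of caffeine and arylamine oxidation, ranged from 789 to 1282 in cont., 1121 to 1355 in Atg7-KO mice and 893 to 941 in Atg7-KO;p62T352A. Atg7-KO and cont. mice overlapped in Cyp1a2, and its log2 fold change was 0.33 (SE 0.22, FDR 0.254). Cyp1a2 and Cyp1a1 are neighbours at chr9:57676937-57683703 and chr9:57687928-57703824 (GRCm38).

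**Figure D3:**
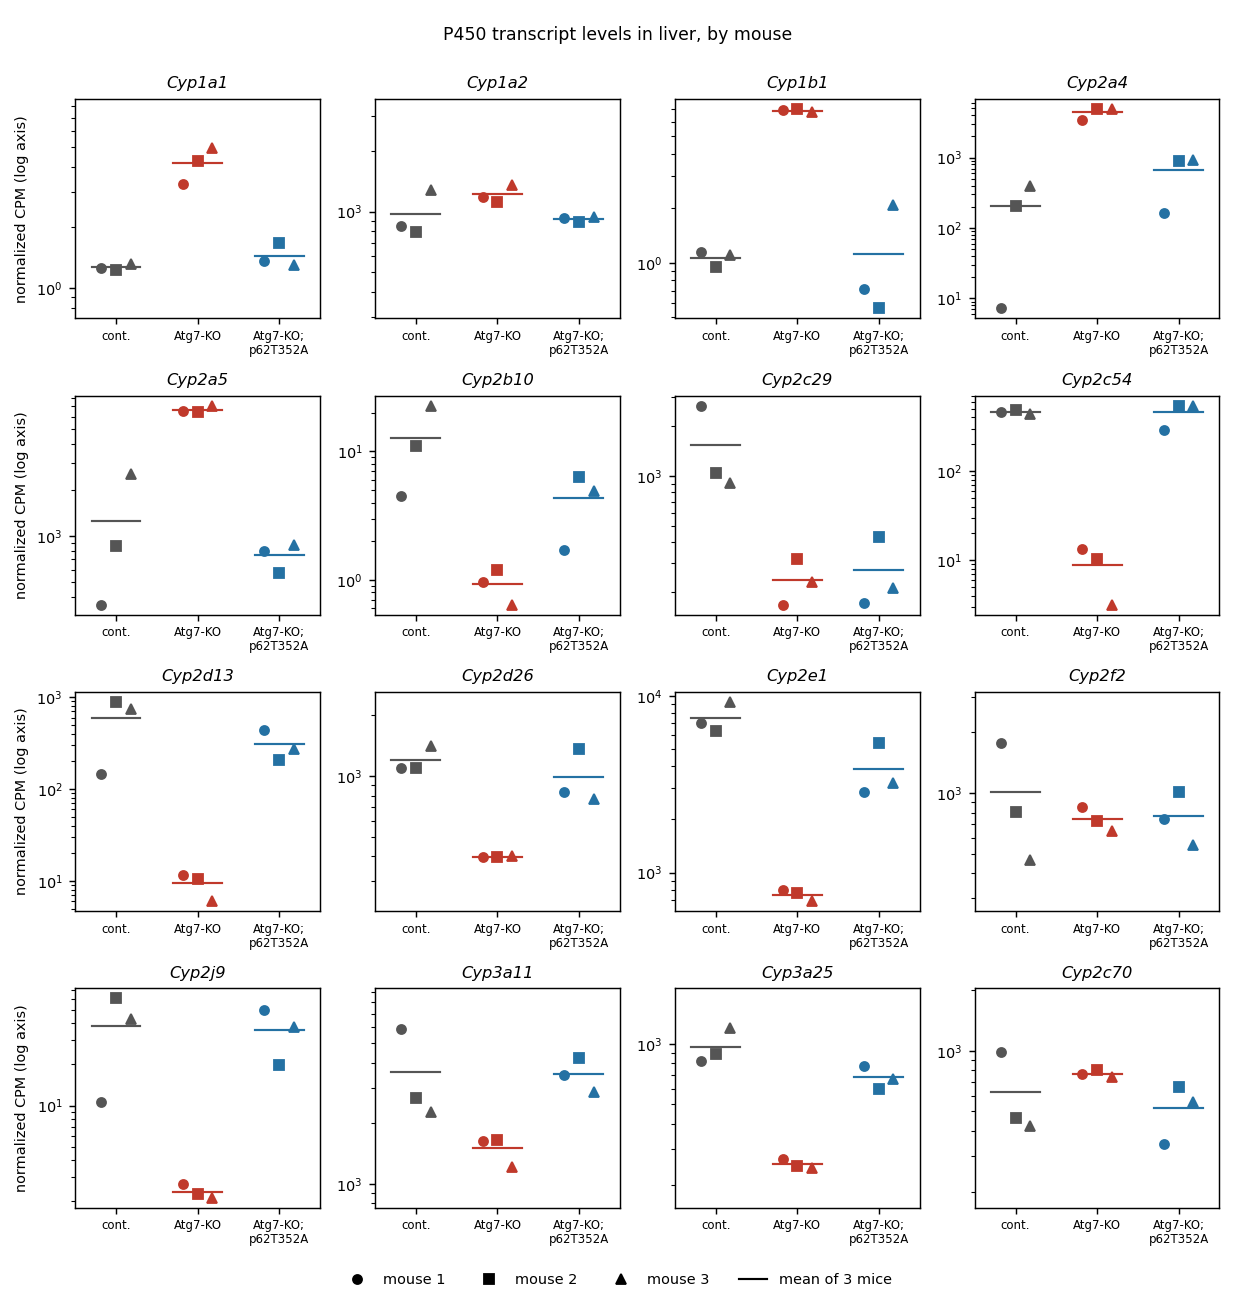
Normalized CPM on a log axis of 16 members in every mouse. Symbols mark the mouse number and bars the mean of 3 mice. Cyp1a1, Cyp1b1, Cyp2a4 and Cyp2a5 are highest in the 3 Atg7-KO mice, Cyp2c54, Cyp2d13 and Cyp2e1 lowest, and Cyp1a2, Cyp2c70 and Cyp2f2 overlap between Atg7-KO and cont. Cyp2c29 is low in both Alb-Cre genotypes.

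The Cyp2a genes gave the highest levels of any member in Atg7-KO livers. Cyp2a5, which oxidizes coumarin and nicotine, was at 354, 859 and 2539 normalized CPM in cont. mice 1 to 3, 6490.3, 6427 and 7084 in Atg7-KO mice and 796, 569.9 and 876 in Atg7-KO;p62T352A. Every Atg7-KO mouse was above every other mouse, and cont. mouse 3 stood nearest to them. The log2 fold change was 2.41 (SE 0.59, FDR 0.00839) against cont. and -3.16 (SE 0.61, FDR 0.00211) in Atg7-KO;p62T352A against Atg7-KO. Cyp2a4, a steroid hydroxylase with a female bias, was at 7.22, 203 and 402 in cont., 3420.3, 4852 and 4881 in Atg7-KO mice and 162, 911 and 930.2 in Atg7-KO;p62T352A. In each genotype mouse 1 was the lowest, and the Atg7-KO mice again lay above all others. Its log2 fold change against cont. was 4.43 (SE 1.16, FDR 0.0118). In Atg7-KO;p62T352A against Atg7-KO it was -2.72 (SE 1.07), which missed the threshold (FDR 0.0552) although the groups did not overlap. It was called lower with DESeq2 (FDR 0.0341), upper-quartile scaling (FDR 0.0477), no filter (FDR 0.0386), the replicate block (-3.33, FDR 0.0137), a term for the mice numbered 1 (FDR 0.00934) and without those mice (-2.40, FDR 0.000727). Without the mice numbered 1, the changes against cont. were 4.01 for Cyp2a4 and 1.99 for Cyp2a5. With cont. mouse 1 as the only control, they were 9.11 and 4.10, and Cyp2a5 was then higher in Atg7-KO;p62T352A than in cont. by 0.95 on the log2 scale (FDR 0.0381).

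Cyp2a4 (chr7:26307169-26315088) and Cyp2a5 (chr7:26835305-26843548) are near copies in the same gene cluster on chromosome 7. Of the 75-base stretches of their transcripts, 22.1% and 22.3% recur in another gene, mostly in each other, so the split of reads between them is uncertain. Summed before the fit, the pair was at 361 to 2942 normalized CPM in cont., 9911 to 11960 in Atg7-KO mice and 958 to 1806 in Atg7-KO;p62T352A. The sum rose in Atg7-KO against cont. by a log2 fold change of 2.92 (FDR 0.00491), and was -2.97 in Atg7-KO;p62T352A against Atg7-KO (FDR 0.00379). The likeness extends upstream of the genes. The RefSeq windows from 250 to 51 bases before each start (GRCm38.p6, plus strand) are shown because these genes led the levels in Atg7-KO livers and are nearly the same upstream, with capitals at the bases that differ:
Cyp2a4, chr7:26306942-26307141: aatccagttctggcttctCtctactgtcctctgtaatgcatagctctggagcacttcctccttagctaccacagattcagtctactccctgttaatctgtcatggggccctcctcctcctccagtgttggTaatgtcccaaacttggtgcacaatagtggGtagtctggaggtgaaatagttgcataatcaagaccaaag
Cyp2a5, chr7:26835089-26835288: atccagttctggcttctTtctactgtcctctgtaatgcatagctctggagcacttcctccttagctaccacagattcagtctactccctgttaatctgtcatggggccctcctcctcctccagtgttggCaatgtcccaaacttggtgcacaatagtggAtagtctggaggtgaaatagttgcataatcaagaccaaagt
With an offset of 1 base, 199 bases align with 3 differences (98.5% identity). The letters TGACNNNGC, the core of the antioxidant response element that NRF2 binds, were absent upstream of both genes, and from all of the 53 windows of 250 bases before the starts of 50 members on either strand. They were in 10.2% of all 32851 such windows in the RefSeq table. The core of the AhR response element, GCGTG, was in 17% of the member windows and 28.2% of all windows. It was found upstream of Cyp1a1, Cyp1b1 and Cyp2b10 among others, and not of Cyp2a4 or Cyp2a5. TTGCGCAA, a palindrome of C/EBP factors, was in 0 member windows and in 0.164% of all windows. Sequence further from the starts was not searched, so these values do not cover distal sites. Many members are near copies, so their windows are not independent. Binding by NRF2, AhR or C/EBP factors was not tested.

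The other Cyp2a genes did not rise in Atg7-KO. Cyp2a12 was at 446 to 568 normalized CPM in Atg7-KO and 448 to 614 in cont. mice, with a log2 fold change of -0.09 (SE 0.21, FDR 0.757). Cyp2a22 was at 1.203, 186 and 557 in cont. mice 1 to 3 and at 6.24, 20.7 and 16.9 in Atg7-KO mice. It was called lower (log2 fold change -4.08, FDR 0.0481) although cont. mouse 1 lay below all 3 Atg7-KO mice, and the call was lost when any of 7 single mice was left out. Cyp2a22 shares 9.21% of its stretches with Cyp2a12.

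Cyp2b10, the standard target of CAR, was at 4.47, 11.1 and 22.7 normalized CPM in cont., 0.967, 1.19 and 0.640 in Atg7-KO mice and 1.71, 6.37 and 4.89 in Atg7-KO;p62T352A. The Atg7-KO mice were below all others. The log2 fold change was -3.75 (SE 0.66, FDR 0.00168) against cont. and 2.21 (SE 0.65, FDR 0.0166) in Atg7-KO;p62T352A against Atg7-KO, the latter not called without Atg7-KO mouse 3 or without Atg7-KO;p62T352A mouse 2. Cont. mice 2 and 3, with the high Dbp, were the highest for Cyp2b10. Nr1i3, the gene of CAR, was at 72.9, 253 and 351 in cont., 26.6 to 37.8 in Atg7-KO mice and 78.3 to 159 in Atg7-KO;p62T352A, with log2 fold changes of -2.76 (SE 0.51, FDR 0.00224) and 1.94 (SE 0.50, FDR 0.00917). Cyp2b9 and Cyp2b13, steroid-metabolizing members with a female bias, are described with the sex-biased members.

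The Cyp2c enzymes oxidize drugs and arachidonic acid. Of 13 tested members, 7 were lower and 0 higher in Atg7-KO than in cont. (14 members of the cluster lie within chr19:39007019-40187333). In Atg7-KO;p62T352A against Atg7-KO, 6 were higher and 1 lower. Cyp2c54 was at 459, 482 and 439 normalized CPM in cont. mice, 13.3, 10.3 and 3.16 in Atg7-KO mice and 286, 540.2 and 544 in Atg7-KO;p62T352A. Its log2 fold changes of -5.69 (SE 0.54, FDR 6.64e-05) and 5.68 (SE 0.54, FDR 7.84e-05) were the largest of the subfamily among called members. Cyp2c37 was at 493, 683 and 1106 in cont., 16.0, 35.4 and 22.7 in Atg7-KO mice and 103, 896 and 734 in Atg7-KO;p62T352A. Cyp2c50 was at 1325, 782 and 979 in cont., 80.2, 61.5 and 42.0 in Atg7-KO mice and 437, 842 and 679 in Atg7-KO;p62T352A. For all 3 genes the Atg7-KO mice lay below every other mouse. The log2 fold changes of Cyp2c37 were -4.94 (SE 0.76, FDR 0.00083) and 4.55 (SE 0.75, FDR 0.000942), and those of Cyp2c50 -4.07 (SE 0.36, FDR 5.36e-05) and 3.41 (SE 0.35, FDR 0.000105). These 3 genes share 10.4% to 14.1% of their 75-base stretches with other genes. Cyp2c38, Cyp2c67 and Cyp2c68 were also called lower in Atg7-KO mice and higher in Atg7-KO;p62T352A, with log2 fold changes of -3.75 to -1.23 and 1.98 to 2.65. The fall of Cyp2c68 was not called when any of 6 single mice was left out, with upper-quartile scaling, or without cont. mice 2 and 3 (-0.92).

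Cyp2c29, which epoxidizes arachidonic acid and is among the most abundant Cyp2c genes, took a different course from the Cyp2c genes above. It was at 2651, 1035 and 912 normalized CPM in cont. mice 1 to 3, 168, 317 and 230.3 in Atg7-KO mice and 172, 430.4 and 211 in Atg7-KO;p62T352A. Both Alb-Cre genotypes were below all cont. mice, and they overlapped each other. Its log2 fold change was -2.68 (SE 0.51, FDR 0.00238) in Atg7-KO against cont., 0.19 (SE 0.48, FDR 0.758) in Atg7-KO;p62T352A against Atg7-KO and -2.50 (SE 0.50, FDR 0.0161) in Atg7-KO;p62T352A against cont. The last call was lost without Atg7-KO;p62T352A mouse 1 or 3, at -2.26 and -2.35. Cyp2c70, which makes the muricholic acids of mouse bile, was at 985, 463 and 426 in cont. and 772, 804 and 740.5 in Atg7-KO mice and was not called (log2 fold change 0.30, SE 0.35, FDR 0.495). It was called higher in Atg7-KO without cont. mouse 1 (0.79, FDR 0.0206) and without the mice numbered 1 (0.80, FDR 0.0103). Cyp2c55 was at 20.8, 5.86 and 3.30 in cont., 15.6, 17.96 and 17.96 in Atg7-KO mice and 6.64, 5.88 and 6.33 in Atg7-KO;p62T352A. It fell between Atg7-KO and Atg7-KO;p62T352A (log2 fold change -1.45, SE 0.53, FDR 0.0404), a call lost when any of the 6 mice compared was left out.

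A motif of HNF4A was frequent upstream of Cyp2c and Cyp3a genes. The letters CAAAGTCCA, searched on both strands in the 250 bases before each start, were in 15.1% of 53 member windows (8 genes) and in 0.384% of all 32851 windows. The shorter CAAAGTCC, which it contains, was in 20.8% and 1.2%, the added genes being Cyp2a4, Cyp2a5 and Cyp2c66. The members are near copies of each other, so their matches are not independent. Starts here are those of RefSeq. In GENCODE, the source of the gene positions, Cyp3a11 starts further upstream, at chr5:145879964, so its motif lies inside that transcript. The stretches are printed in the sense of each gene (RefSeq, GRCm38.p6) to show how far the letters around the motif, in capitals, are shared:
Cyp2c40, chr19:39812841-39812869, minus strand: atcattgagaCAAAGTCCAtttggaagag
Cyp2c69, chr19:39886826-39886854, minus strand: atcattgagaCAAAGTCCAtttggaagag
Cyp2c67, chr19:39649149-39649177, minus strand: atcattgagaCAAAGTCCAtttggaagca
Cyp2c68, chr19:39741160-39741188, minus strand: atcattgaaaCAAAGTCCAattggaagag
Cyp2c65, chr19:39060880-39060908, plus strand: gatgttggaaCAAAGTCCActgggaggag
Cyp2c70, chr19:40187332-40187360, minus strand: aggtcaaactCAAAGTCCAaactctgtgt
Cyp3a11, chr5:145879945-145879973, minus strand: aagagagtacCAAAGTCCAgtgatgcaaa
Cyp3a16, chr5:145469804-145469832, minus strand: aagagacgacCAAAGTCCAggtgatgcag
In Atg7-KO against cont., Cyp2c67, Cyp2c68 and Cyp3a11 were called lower, with log2 fold changes of -2.42, -1.23 and -1.26. Cyp2c40, Cyp2c69, Cyp2c70 and Cyp3a16 were not called, at -3.10, -3.83, 0.30 and -0.13, and Cyp2c65 was not tested. The differences between these members were not tested. Hnf4a itself was at 424 to 590.3 normalized CPM in cont., 363 to 431 in Atg7-KO mice and 614 to 752 in Atg7-KO;p62T352A. It was not called in Atg7-KO (log2 fold change -0.39, SE 0.20, FDR 0.131) and was higher in Atg7-KO;p62T352A than in Atg7-KO (0.73, SE 0.20, FDR 0.0119).

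The Cyp2d genes, which hydroxylate drugs and steroids, fell in 6 of 8 tested members in Atg7-KO mice and rose in 6 of 8 in Atg7-KO;p62T352A against Atg7-KO. Cyp2d13 was at 145, 887 and 752 normalized CPM in cont., 11.6, 10.6 and 6.02 in Atg7-KO mice and 443, 209 and 275 in Atg7-KO;p62T352A. Its log2 fold changes were -5.98 (SE 0.70, FDR 0.000199) and 5.04 (SE 0.67, FDR 0.000328), the largest of the subfamily. Cyp2d26, one of the highest members per kilobase, was at 1095, 1102 and 1413 in cont., 396, 395 and 403 in Atg7-KO mice and 829, 1361 and 773 in Atg7-KO;p62T352A. Its fall was smaller, with log2 fold changes of -1.60 (SE 0.25, FDR 0.000923) and 1.31 (SE 0.25, FDR 0.00199). Cyp2d10 was at 905 to 988 in cont., 357 to 432 in Atg7-KO mice and 1018 to 1334 in Atg7-KO;p62T352A, with log2 fold changes of -1.32 (SE 0.19, FDR 0.000551) and 1.62 (SE 0.19, FDR 0.00019). For these 3 genes the Atg7-KO mice did not overlap either other genotype. Cyp2d11, Cyp2d22 and Cyp2d40 were also lower in Atg7-KO and then higher, Cyp2d40 with the largest log2 fold changes of the 3 (-2.80 and 2.31), whereas Cyp2d12 and Cyp2d9 were not called. With cont. mouse 1 as the only control, Cyp2d12 was called higher (2.33, also without cont. mouse 3 alone at 2.32) and Cyp2d9 lower (-3.31).

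Cyp2e1, the pericentral oxidase of ethanol and acetaminophen, was at 7047, 6309 and 9234 normalized CPM in cont. mice. It was at 799, 766 and 689 in Atg7-KO mice and at 2859, 5439 and 3222 in Atg7-KO;p62T352A. The 3 genotypes did not overlap, with Atg7-KO lowest and cont. highest. The log2 fold change was -3.33 (SE 0.31, FDR 6.41e-05) in Atg7-KO against cont. and 2.35 (SE 0.30, FDR 0.000261) in Atg7-KO;p62T352A against Atg7-KO. Between Atg7-KO;p62T352A and cont. it was -0.97 (SE 0.29) and missed the threshold (FDR 0.0555). This difference was called without cont. mouse 1 (-1.02), without Atg7-KO;p62T352A mouse 2 (-1.31) and with DESeq2 (-1.02), and not without the mice numbered 1 (-0.84). Cyp2e1 lies apart from the other members on chromosome 7, at chr7:140763739-140774987.

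The remaining Cyp2 subfamilies were mixed. Cyp2f2, which activates naphthalene, was at 1775, 805 and 463 normalized CPM in cont. and 853, 725 and 651 in Atg7-KO mice, which overlapped (log2 fold change -0.45, SE 0.43, FDR 0.418). With cont. mouse 1 as the only control it was called lower (-1.39). Cyp2g1, an olfactory enzyme that was low here, was at 1.66 to 12.7 in cont. and 4.79 to 6.44 in Atg7-KO mice and was not called either (-0.38, SE 0.61, FDR 0.633). Of the Cyp2j genes, epoxygenases of arachidonic acid, 3 of 4 tested were lower in Atg7-KO. Cyp2j9 was at 10.6, 60.6 and 42.6 in cont., 2.66, 2.26 and 2.13 in Atg7-KO mice and 50.1, 19.9 and 37.6 in Atg7-KO;p62T352A, with log2 fold changes of -4.01 (SE 0.61, FDR 0.000751) and 3.93 (SE 0.60, FDR 0.000659). Cyp2j5, the highest of them, was at 784, 391.7 and 371 in cont., 268, 235 and 192 in Atg7-KO mice and 242, 408 and 257 in Atg7-KO;p62T352A. It fell in Atg7-KO (log2 fold change -1.15, SE 0.33, FDR 0.018) but was not called without Atg7-KO mouse 2 or 3, and the difference of 0.38 between Atg7-KO;p62T352A and Atg7-KO was not called (SE 0.33, FDR 0.344). Cyp2j6 lay between 76.7 and 106 in all 9 mice and had log2 fold changes of -0.06 and -0.07 (SE 0.17). Cyp2j8 had at most 3 counts in any Atg7-KO mouse and was at least 5.88-fold lower there than the mean of cont. mice and at least 4.84-fold lower than that of Atg7-KO;p62T352A mice, with the floor at 3 counts per library. Its call against cont. was lost without cont. mouse 2, Atg7-KO mouse 2 or both cont. mice 2 and 3, and that against Atg7-KO;p62T352A without Atg7-KO mouse 2.

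Cyp2r1, a vitamin D hydroxylase, was at 25.3, 13.1 and 11.1 normalized CPM in cont., 19.9, 17.2 and 16.9 in Atg7-KO mice and 10.6, 11.1 and 10.3 in Atg7-KO;p62T352A. It was not called in Atg7-KO against cont. (log2 fold change 0.11, SE 0.28, FDR 0.757) and was -0.76 (SE 0.28, FDR 0.0442) in Atg7-KO;p62T352A against Atg7-KO, a call that was lost when any of 7 single mice was left out. Cyp2s1, an extrahepatic member, was at most 2.42 in any mouse and was not called.

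The Cyp3a genes clear many drugs and bile acids and are targets of PXR. Cyp3a11, the most abundant, was at 5880, 2655 and 2278 normalized CPM in cont., 1638, 1657 and 1210 in Atg7-KO mice and 3482, 4208 and 2873 in Atg7-KO;p62T352A. The Atg7-KO mice were below all others, and cont. mouse 1 stood far above cont. mice 2 and 3. Its log2 fold change was -1.26 (SE 0.36, FDR 0.0181) in Atg7-KO against cont. and 1.23 (SE 0.36, FDR 0.0174) in Atg7-KO;p62T352A against Atg7-KO. Without Atg7-KO mouse 3 neither was called, and without Atg7-KO;p62T352A mouse 2 the second was not. Cyp3a25 was at 820, 886 and 1202 in cont., 267, 249 and 241 in Atg7-KO mice and 777, 598 and 673 in Atg7-KO;p62T352A. For Cyp3a25 the 3 genotypes did not overlap, and the log2 fold changes were -1.94 (SE 0.21, FDR 0.00014) and 1.44 (SE 0.21, FDR 0.000498). Cyp3a59, which shares sequence with Cyp3a25, was lower in Atg7-KO by -1.75 (SE 0.36, FDR 0.00376). Cyp3a13 lay between 130 and 215 in all 9 mice and was not called in any comparison. Nr1i2, the gene of PXR, was at 64.3, 179 and 121 in cont., 45.7 to 56.2 in Atg7-KO mice and 104 to 160 in Atg7-KO;p62T352A, with log2 fold changes of -1.24 (SE 0.33, FDR 0.0131) and 1.37 (SE 0.33, FDR 0.00684).

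Members with a known sex bias varied with the mouse number. The 7 female-biased members (Cyp2a4, Cyp2b9, Cyp2b13, Cyp2c40, Cyp2c69, Cyp3a16 and Cyp3a44) were lowest in mouse 1 of every genotype, the mice with little Xist. Cyp2b9 was at 0.917, 286 and 455 normalized CPM in cont., 3.68, 46.6 and 48.5 in Atg7-KO mice and 3.29, 300.2 and 204 in Atg7-KO;p62T352A. Cyp2b13 was at 0.0573, 143 and 299 in cont., 0.532, 1.60 and 1.58 in Atg7-KO mice and 0.143, 117 and 40.3 in Atg7-KO;p62T352A. In mice 2 and 3, both genes were lower in Atg7-KO than in the other genotypes, while mouse 1 was low everywhere. Cyp2b13 was called lower in Atg7-KO (log2 fold change -6.87, SE 2.20, FDR 0.0287), although cont. mouse 1 lay below all Atg7-KO mice, and the call was lost when any of 4 single mice was left out. With cont. mouse 1 as the only control, its value turned to 4.17, which was not called (FDR 0.523). Cyp2b9 was not called with all mice (-2.91, SE 1.73, FDR 0.194) and was called lower without the mice numbered 1 (-2.96). With cont. mouse 1 as the only control, its value turned to 5.02.

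Cyp2c40 was at 20.3, 342 and 472 normalized CPM in cont., 5.61, 66.6 and 25.1 in Atg7-KO mice and 2.79, 1453 and 713 in Atg7-KO;p62T352A. Cyp2c69 was at 7.16, 490.2 and 817 in cont., 3.05, 70.6 and 18.3 in Atg7-KO mice and 0.357, 1224 and 691 in Atg7-KO;p62T352A. With all mice and the filter on low counts, edgeR called neither in any comparison. Other settings with all mice called Cyp2c40 higher in Atg7-KO;p62T352A than in Atg7-KO, which were DESeq2 (4.46, FDR 0.0149), no filter on low counts (4.45, FDR 0.0374), a term for mouse number (the replicate block, 3.35, FDR 0.0321) and a term for the mice numbered 1 (3.36, FDR 0.0237). The last also called it lower in Atg7-KO against cont. (-2.58, FDR 0.0482), and DESeq2 called Cyp2c69 higher in Atg7-KO;p62T352A than in Atg7-KO (4.36, FDR 0.0481). Without the mice numbered 1 both passed as lower in Atg7-KO against cont. (-3.15 and -3.88) and higher in Atg7-KO;p62T352A than in Atg7-KO (4.56 and 4.43). With cont. mouse 1 as the only control, both turned positive in Atg7-KO against cont., at 0.53 and 1.95. They share 45.9% and 42.6% of their 75-base stretches with other genes. Summed with Cyp2c67 and Cyp2c68, they were at 643 to 1960 in cont., 183 to 378 in Atg7-KO mice and 602 to 3904 in Atg7-KO;p62T352A. The sum was lower in Atg7-KO by a log2 fold change of -2.29 (FDR 0.0155) and higher in Atg7-KO;p62T352A than in Atg7-KO by 3.03 (FDR 0.00391). Cyp3a16 and Cyp3a44 reached at most 22.0 in any mouse and were not called.

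Of the male-biased members, Cyp2d9, a testosterone hydroxylase, was at 2035, 818 and 227 normalized CPM in cont., 335, 141 and 201 in Atg7-KO mice and 1416, 189 and 110.2 in Atg7-KO;p62T352A. Mouse 1 was the highest in every genotype. In mouse 1, the Atg7-KO liver was below both others. The comparison with all mice was not called (log2 fold change -2.19, SE 0.99, FDR 0.097), but it was called lower with a term for the mice numbered 1 (-1.85) and without them (-1.61). Cyp2u1, a fatty acid hydroxylase, was at 21.8, 8.04 and 2.86 in cont., 2.71, 1.73 and 1.79 in Atg7-KO mice and 4.50, 1.47 and 0.261 in Atg7-KO;p62T352A. It was called lower in Atg7-KO (-2.41, SE 0.84, FDR 0.0389), a call lost when any of 6 single mice was left out. In Atg7-KO;p62T352A the log2 fold change of Cyp2u1 was -0.0057 against Atg7-KO (FDR 0.996) and -2.42 against cont. (FDR 0.0974). Atg7-KO;p62T352A mice overlapped cont. mice in Cyp2u1, unlike in Cyp2c29. With all mice and no term for mouse number, edgeR did not call the difference of Cyp2u1 from cont. It was called lower by DESeq2 (-2.49, FDR 0.0203), with the replicate block (-2.46, FDR 0.0347) and with a term for the mice numbered 1 (-2.45, FDR 0.0284). Without the mice numbered 1 it was called lower too (-2.68, FDR 0.0302). Of all tested genes, 22.1% were lower and 21.6% higher in Atg7-KO than in cont. Among 12 male-biased liver genes outside these families, 9 were lower in Atg7-KO and 0 higher, and among 8 female-biased ones, 3 were lower and 1 higher. The higher one, Sult1e1 (3.45), was not called with DESeq2 or when any of 6 single mice was left out. Of the lower ones, Cux2 (-4.57) was not called when any of 7 single mice was left out and Sult3a1 (-6.06) when any of 6 was, and with cont. mouse 1 as the only control their values turned to 3.26 and 6.53.

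**Figure D4:**
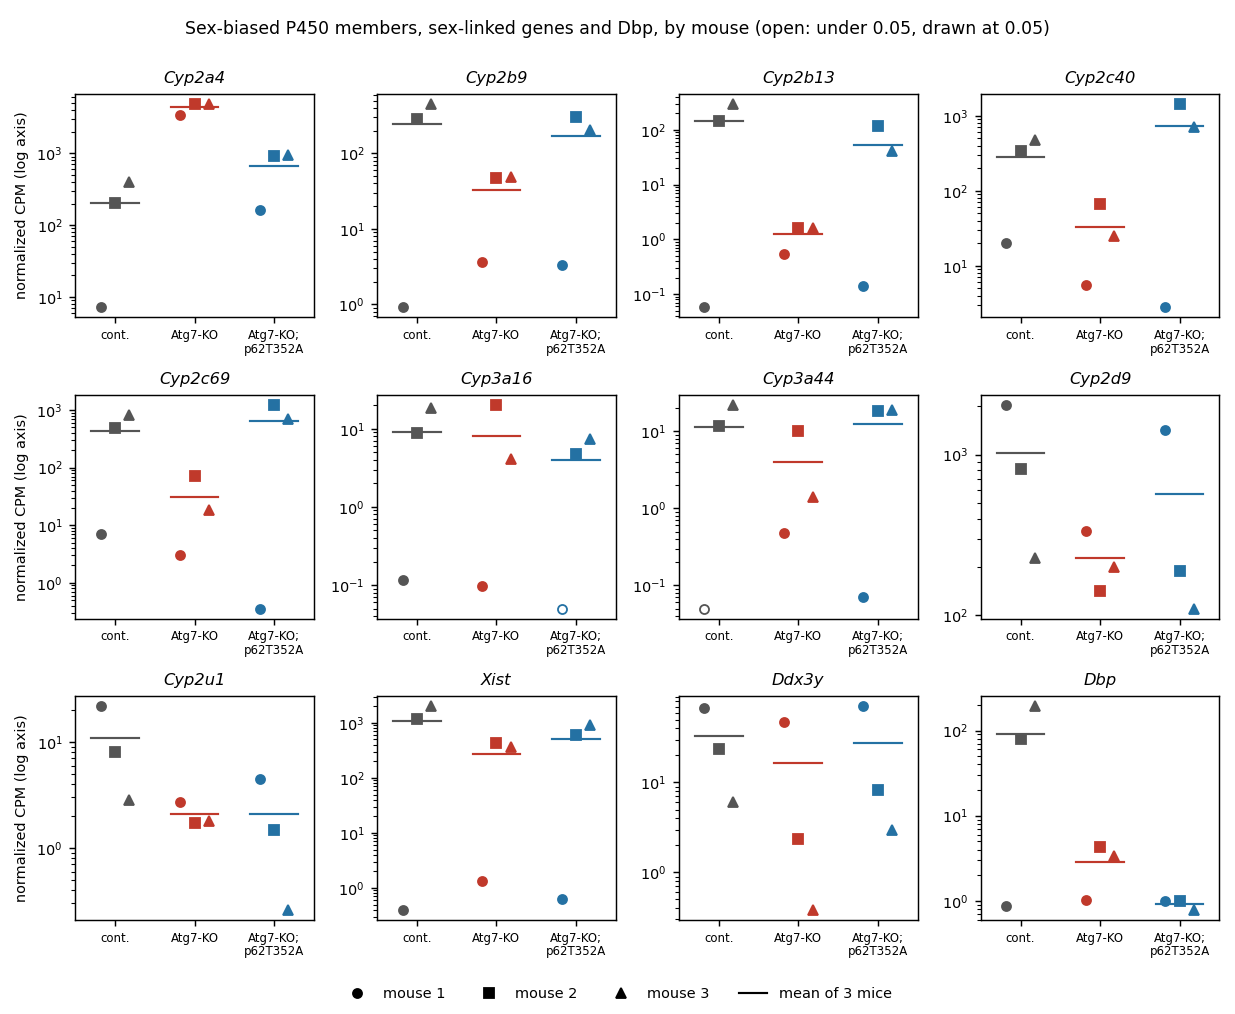
Normalized CPM on a log axis of 9 sex-biased members, of Xist and the Y-linked Ddx3y, and of the clock output gene Dbp in every mouse. Circles (mouse 1) are lowest for the 7 female-biased members and Xist and highest for Cyp2d9, Cyp2u1 and Ddx3y in all 3 genotypes. Dbp is high in cont. mice 2 and 3 alone.

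The members of each gene cluster moved in part together and in part not. On chromosome 7, the cluster of Cyp2a, Cyp2b, Cyp2f, Cyp2g, Cyp2s and Cyp2t genes (chr7:25802475-27158668) held 2 members that were higher in Atg7-KO than in cont., 3 that were lower and 5 that were not called. Cyp2b9, the nearest tested member before Cyp2a4, and Cyp2g1, the nearest before Cyp2a5, were not called. The Cyp2c cluster held 7 lower and 5 not called, the Cyp2d cluster (chr15:82370527-82794294) 5 lower and 2 not called, without Cyp2d13, which has no match in the reference. The Cyp3a cluster (chr5:145345279-146113287) held 3 lower and 2 not called, and the Cyp2j cluster (chr4:96027534-96664154) 3 lower and 1 not called.

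The P450 genes of other families, among them enzymes of bile acid, steroid and fatty acid metabolism, are given beside them. Of 27 tested, 12 were lower and 3 higher in Atg7-KO than in cont., with a median log2 fold change of -1.54. Of all tested genes, 22.1% were lower and 21.6% higher. In Atg7-KO;p62T352A against Atg7-KO, 8 of the 27 were higher and 6 lower, with a median of 0.77. Of all tested genes, 24.7% were higher and 26.2% lower there. The difference between both sets of families was not tested.

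Of 6 redox partners of the enzymes, 1 was lower in Atg7-KO: Cyb5a, which is cytochrome b5, an electron donor of P450s, at 991 to 1290 normalized CPM in cont. and 697 to 805 in Atg7-KO mice (log2 fold change -0.66, SE 0.19, FDR 0.0197). This call was lost when any of the 3 Atg7-KO mice was left out and with upper-quartile scaling (-0.55). Por, the P450 reductase, was at 151, 470.2 and 641 in cont. and 174, 233 and 232 in Atg7-KO mice and was not called (FDR 0.11), with cont. mice 2 and 3 the highest as for Dbp. Of all tested genes, 22.1% were lower and 21.6% higher in Atg7-KO. In Atg7-KO;p62T352A against Atg7-KO, 24.7% were higher and 26.2% lower. Of 10 genes of heme synthesis, 5 were lower and 0 higher in Atg7-KO, and 5 were higher and 1 lower in Atg7-KO;p62T352A than in Atg7-KO. The largest falls were those of Slc25a38, the mitochondrial glycine carrier, at -2.00 (SE 0.29, FDR 0.000616), and Ppox at -1.74 (SE 0.36, FDR 0.00374). Of 4 genes of heme breakdown, 2 were higher in Atg7-KO: Blvrb by 1.69 (SE 0.17, FDR 0.000105) and Hmox1 by 1.62 (SE 0.29, FDR 0.00188). Hmox1 was at 11.1 to 22.2 in cont., 41.5 to 51.8 in Atg7-KO mice and 7.28 to 12.5 in Atg7-KO;p62T352A.

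Of 10 receptor genes, 5 were lower and 0 higher in Atg7-KO (Nr1i3, Nr1i2, Nr1h4, Ppara and Rxra). In Atg7-KO;p62T352A against Atg7-KO, 4 were higher. Of all tested genes, 22.1% were lower and 21.6% higher in the first comparison, and 24.7% were higher in the second. Nr1h4, the bile acid receptor FXR, fell by 1.96 on the log2 scale (SE 0.25, FDR 0.000331). Ahr was at 63.0 to 83.4 normalized CPM in cont. and 64.5 to 81.1 in Atg7-KO mice, with a log2 fold change of 0.01 (SE 0.17). Of 4 tested genes of the AhR battery outside the P450s, 3 were higher in Atg7-KO. Nqo1, which NRF2 also controls, was at 6.36, 7.28 and 12.2 in cont., 175, 219 and 249 in Atg7-KO mice and 11.7, 13.2 and 18.4 in Atg7-KO;p62T352A, with log2 fold changes of 4.65 (SE 0.32, FDR 1.57e-05) and -3.89 (SE 0.31, FDR 3.48e-05). Sqstm1 was higher in Atg7-KO than in cont. by 1.24 (SE 0.22, FDR 0.00189). Of 13 hepatocyte regulators, 6 were lower and 0 higher in Atg7-KO, with Dbp (-4.97) and Tef (-3.29) falling most. With cont. mouse 1 as the only control, the value of Dbp turned to 1.61 and that of Tef was -0.77, which was not called. Of 7 genes of growth hormone signalling, 5 were lower in Atg7-KO, among them Igf1 by -2.36 (SE 0.20, FDR 3.5e-05).

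In Atg7-KO livers most hepatocyte markers fell, like most of the P450 members, whereas many markers of other liver cells rose. Of 6 hepatocyte markers, 5 were lower in Atg7-KO, and their summed level was 71533 to 127706 normalized CPM in cont., 37910.5 to 40569.5 in Atg7-KO mice and 110382 to 126954 in Atg7-KO;p62T352A. Of 9 pericentral markers, 7 were lower and 1 higher, with sums of 2129 to 4050 in cont., 624 to 734 in Atg7-KO mice and 2261 to 3302 in Atg7-KO;p62T352A. Periportal markers were lower too, in 5 of 6. Of all tested genes, 22.1% were lower and 21.6% higher in Atg7-KO. Of the markers of other cells, 5 of 6 for macrophages, 5 of 6 for cholangiocytes, 4 of 6 for stellate cells, 4 of 6 tested for lymphocytes and granulocytes, and 3 of 6 for endothelium were higher in Atg7-KO, and 1 endothelial marker was lower. The macrophage sum was 255 to 363 in cont., 1058 to 1140 in Atg7-KO mice and 185 to 398 in Atg7-KO;p62T352A, and the cholangiocyte sum 33.4 to 51.3, 826 to 1023 and 181 to 266. No marker list was at 0 in any genotype, and Cftr was the only defining marker at 0, in cont. mice 2 and 3. The part of cell composition in the P450 results was not tested.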

How the data were processed

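Poly(A) RNA of liver was sequenced by the authors as 75-base single-end reads, trimmed with Trim Galore, mapped to mm10 with STAR and counted with RSEM. Their deposited values are expected counts from RSEM for each gene, not scaled, with 1 column per mouse; they were rounded to whole numbers. Tool versions, annotation and strand setting are not given in the sources used here. RNA extraction is named differently in the paper and the labels.

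Genes were kept by filterByExpr (13922 of 24411), scaled by TMM and fitted over 9 mice in 1 quasi-likelihood model (edgeR 4.0.16, R 4.3.3). Calls needed a Benjamini-Hochberg FDR under 0.05 over all tested genes and a fold change over 1.5. SEs come from the F statistic. DESeq2 1.42.0 was an alternative. The labels do not say how replicates were raised, so p-values measure the spread between these mice. Members and lists were chosen with earlier results of these data known. Members named were the 2 highest per subfamily, the 5 largest rises and falls per comparison (called, without overlap, mean of at least 1 normalized CPM), and the sex-biased ones. Genes of other lists were named where they were called and changed most in either direction against cont. Cyp2a12, Cyp2a22, Cyp2b10, Cyp2c38, Cyp2c67, Cyp2c68, Cyp2d11, Cyp2d12, Cyp2d22, Cyp2d40, Cyp2j8, Cyp3a13 and Cyp3a59, and among other genes Por, Nr1i2, Hnf4a, Ahr, Ppara, Rxra, Elovl3 and the sex-linked genes, were added after their values were seen. Positions and transcripts are from GENCODE for GRCm38, with 57 of 58 members matched (Cyp2c44 as Cyp2c23). Lengths are those of the longest transcript. Promoters are from RefSeq (GRCm38.p6). In simulated data with a 4-fold change, 94.9% of 195 changed genes were called, and 8 of 13488 unchanged ones. Every simulated gene had a dispersion of 0.08 and no effect of mouse number. These rates need not hold for members that varied widely between mice of a genotype.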

Additional observations from a re-analysis of the deposited data

How the results depend on the processing

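Of 28 members called in Atg7-KO against cont., 21 stayed called under every alternative run per gene that tested them, and 18 of 23 in Atg7-KO;p62T352A against Atg7-KO did. Cyp2d11, which is in both of these counts, was too low to be tested with the filter at a mean CPM of at least 1. Leaving out each mouse in turn gave 18 to 26 members lower and 4 to 6 higher in Atg7-KO than in cont., 16 to 22 higher and 3 to 7 lower in Atg7-KO;p62T352A than in Atg7-KO, and 0 to 9 lower and 0 to 1 higher in Atg7-KO;p62T352A than in cont. Of all genes, 22.1% were lower and 21.6% higher in Atg7-KO than in cont. with all mice. Without cont. mouse 1, 28% were lower and 28% higher. Such shares were not computed for the other mice left out singly, glmTreat or the terms for mouse number. With glmTreat, 19 members were lower in Atg7-KO than in cont., against 24. The number lower in Atg7-KO;p62T352A than in Atg7-KO was 3 with glmTreat, against 5. In Atg7-KO;p62T352A against cont., 1 lower and 0 higher became 4 and 1 with DESeq2, 9 and 2 without the mice numbered 1, 8 and 6 without cont. mice 2 and 3 (added after seeing the data), 2 lower with the replicate block or with a term for the mice numbered 1, and 0 lower with glmTreat. The cause was not tested. Leaving out cont. mice 2 and 3 also turned the sign of log2 fold changes called with all mice or in that fit. In Atg7-KO against cont., these turned to 3.46 for Cyp2a22, 4.17 for Cyp2b13, -0.63 for Cyp2r1, 3.26 for Cux2, 1.61 for Dbp and 6.53 for Sult3a1. In Atg7-KO;p62T352A against cont., they turned to 5.06 for Cyp2a22, 0.95 for Cyp2a5, 1.63 for Cyp2j9 and 0.85 for Ppox. Members called in neither fit also changed sign, among them Cyp2b9 (-2.91 to 5.02), Cyp2c40 (-3.10 to 0.53) and Cyp2c69 (-3.83 to 1.95) in Atg7-KO against cont.

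The mouse numbers come from the labels, and same-numbered mice correlated by -0.202 to 0.321 over all genes, so the numbers were not taken to pair the mice. Over the members the correlation of same-numbered mice was 0.448 to 0.829. Mouse 2 of one genotype and mouse 3 of another correlated there by 0.407 to 0.772. Mouse 1 correlated with mice 2 and 3 of other genotypes by -0.808 to -0.456. Over all genes, not every mouse correlated best with its own number. With the replicate block, 25 members were lower and 4 higher in Atg7-KO than in cont., and 21 higher and 6 lower in Atg7-KO;p62T352A than in Atg7-KO. The share of all genes called with the block was not computed. The summed level without each mouse was 2.27% to 2.57% in cont., 2.48% to 2.61% in Atg7-KO mice and 1.68% to 2.02% in Atg7-KO;p62T352A. The ratio of summed levels of Atg7-KO over cont. was 1.02 as a share of counts, 0.687 in normalized CPM and 0.715 per kb, and that of Atg7-KO;p62T352A over Atg7-KO was 0.732, 1.10 and 1.07. Its direction thus depends on the scale. Upper-quartile scaling moved the median of all genes from -0.03 to 0.08 and from 0.0021 to -0.14, and DESeq2 moved it in Atg7-KO;p62T352A against cont. from 0.0044 to -0.13. Summing near-identical genes (added after seeing the data) gave 26 lower and 4 higher in Atg7-KO, and the share of all genes was not computed there. Members at few counts, such as Cyp2d11, Cyp2j8 and Cyp2s1, are limited by depth.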

Other observations

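Family 4 P450 genes, hydroxylases of fatty acids, were looked at after the data were seen. Of 11 tested, 7 were lower and 2 higher in Atg7-KO than in cont., and 5 were higher and 3 lower in Atg7-KO;p62T352A than in Atg7-KO. Of all tested genes, 22.1% were lower and 21.6% higher in the first comparison, and 24.7% higher and 26.2% lower in the second. Cyp4a14 was at 79.0, 1400.0 and 458 normalized CPM in cont. mice 1 to 3, 9.04, 31.5 and 19.7 in Atg7-KO and 104, 1181 and 658 in Atg7-KO;p62T352A mice, with log2 fold changes of -5.00 (SE 1.15, FDR 0.00656) and 5.01 (SE 1.15, FDR 0.00534) by edgeR. Cyp4f18 and Cyp4f16 rose in Atg7-KO by 2.52 (FDR 0.0019) and 2.17 (FDR 0.000322), and Cyp4f16 was also higher in Atg7-KO;p62T352A than in cont. by 1.04 (FDR 0.0409). Cyp4b1 was called only with the p62 exchange, at -1.03 (FDR 0.000749) against Atg7-KO and -1.30 (FDR 0.0047) against cont. The difference between these comparisons was not tested.

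Of 10 P450 genes of sterol and retinoid metabolism, 4 were lower and 0 higher in Atg7-KO, against 22.1% and 21.6% of all tested genes. Cyp7a1, the first enzyme of bile acid synthesis, was at 103, 69.3 and 294 in cont. and 65.0, 24.4 and 31.4 in Atg7-KO mice (-1.95, SE 0.56, FDR 0.0176). Among the clock genes, 9 of 13 were lower in Atg7-KO, and cont. mice 2 and 3 were higher than cont. mouse 1 in Per3, at 20.1 and 83.3 against 1.38, and in Ciart, at 55.8 and 49.1 against 0.286. Cyp3a41a, a copy outside the symbol rule, was at 1.66, 1169 and 2637 in cont., 6.29, 251 and 59.3 in Atg7-KO and 0.857, 1533 and 3043 in Atg7-KO;p62T352A mice, with mouse 1 lowest in each genotype as in the 7 female-biased members.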
